A study of Homo sapiens with 6 samples.

Results

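The 10 genes described here are the Toll-like receptors TLR1, TLR2, TLR4, TLR5, TLR6, TLR7 and TLR8, the accessory proteins CD14 and LY96, and the adaptor MYD88. They were chosen by symbol, and all 10 matched a row among the 39771 rows of the deposited table. RNA was sequenced from MOLM-13, a human acute myeloid leukaemia cell line that carries the MLL-AF9 translocation. A lentivirus carried a hairpin RNA against LAMP5 into the knockdown cells (shLAMP5, 4 libraries) and a non-targeting hairpin into the controls (shNT, 2 libraries). Both were grown in RPMI medium with serum and selected with puromycin, and no library is labelled as having had a Toll-like receptor ligand. The sources used here give neither the hairpin, nor the promoter that drives it, nor the harvest time of a library. Separate cultures are not stated for the libraries of either group, so each p-value reflects library-to-library spread that may be technical.

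Toll-like receptors are membrane proteins that bind parts of microbes. TLR1, TLR2, TLR4, TLR5 and TLR6 act at the cell surface, where they meet lipoproteins, lipopolysaccharide and flagellin, while TLR7 and TLR8 sit in endosomes and bind single-stranded RNA. CD14 hands lipopolysaccharide to LY96, also called MD-2, which holds it on TLR4. All of these receptors recruit MYD88, which starts the kinase cascade that ends in NF-kB and in interferon regulatory factors. Monocytes are the blood cells best known for carrying the surface receptors and TLR8.

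Expression is given in TPM, a transcript abundance scaled to a fixed library total, which is corrected for transcript length, so that levels of different genes can be set side by side. The sums over all rows lay between 897026 and 912565 TPM per library, and read depth is unknown. LAMP5, the target of the hairpin, measured 80.6, 65.6, 68.8 and 86.7 TPM in shLAMP5 1 to 4, against 170 and 282 TPM in shNT 1 and 2. The groups did not overlap, with log2 fold change -1.54 and a limma adjusted p of 0.252. Some libraries varied together across the groups: over genes, the deviation of shNT 2 from its group mean correlated at 0.52 with those of shLAMP5 1 and 4, and that of shNT 1 at 0.474 with shLAMP5 2 and 0.276 with shLAMP5 3. Deviations within a group cancel out, so those of the 2 shNT libraries are exact opposites and their correlations differ only in sign. The 2 sides of this split are therefore 1 observation, and some shLAMP5 libraries had to fall on each. The library shLAMP5 2 stood apart. It had a Spearman correlation of 0.928 to 0.942 with the other shLAMP5 libraries across genes, against 0.956 to 0.986 among those 3, and 0.957 with shNT 1. Its highest row, which has no matched symbol, took 65099 TPM, where the highest row of each other library took 15877 to 21957 TPM. Of the 9 markers fixed for the line, among them PTPRC, CD33, SPI1, HOXA9 and FLT3, all 9 exceeded 1 TPM in every library. Across the 13072 genes tested, no gene passed a limma adjusted p of 0.05 (0.00% called), and 1172 had an unadjusted p under 0.05, of which 686 (5.25% of the genes tested) were lower in shLAMP5.

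Promoter sequences are shown for 3 of the genes, picked with their values known, because they differ in the motifs found. Of the 3, TLR4 and TLR8 were higher in every shLAMP5 library than in both shNT libraries, and MYD88 was not. A link between motifs and values was not tested. They are the 250 bases before the transcription start, from RefSeq on GRCh38.p14, a build other than the hg19 named for the deposited values. Capitals mark GAGGAA, a longer form of the GGAA core read by PU.1 and other ETS factors. They also mark the interferon-stimulated response element, searched as GAAA, any 2 bases and GAAA. Both were searched on both strands, so GAGGAA also appears as TTCCTC. Other forms of the ETS core were not searched.
TLR4, chr9:117704153-117704402, plus strand: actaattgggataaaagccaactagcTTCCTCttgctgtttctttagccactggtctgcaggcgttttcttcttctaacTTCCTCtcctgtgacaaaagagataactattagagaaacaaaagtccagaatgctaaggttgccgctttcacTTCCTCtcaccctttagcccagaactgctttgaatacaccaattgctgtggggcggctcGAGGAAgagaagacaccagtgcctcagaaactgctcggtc
TLR8, chrX:12906370-12906619, plus strand: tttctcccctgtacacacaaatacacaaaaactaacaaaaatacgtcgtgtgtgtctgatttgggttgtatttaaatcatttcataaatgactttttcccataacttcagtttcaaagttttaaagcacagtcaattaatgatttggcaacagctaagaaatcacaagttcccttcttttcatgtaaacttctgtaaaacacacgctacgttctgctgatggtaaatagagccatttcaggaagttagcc
MYD88, chr3:38138411-38138660, plus strand: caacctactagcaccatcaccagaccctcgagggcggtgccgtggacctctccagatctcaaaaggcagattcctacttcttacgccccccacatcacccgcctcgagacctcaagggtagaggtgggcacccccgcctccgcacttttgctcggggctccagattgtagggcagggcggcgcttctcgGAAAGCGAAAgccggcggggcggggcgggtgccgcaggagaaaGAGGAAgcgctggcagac
TLR4 held GAGGAA at 4 places, 3 of them on the opposite strand, and the nearest lay 40 to 35 bases before the start. TLR8 held neither of the motifs searched, though its letters include the shorter GGAA. MYD88 held the response element as GAAAGCGAAA, 61 to 52 bases before the start, and GAGGAA 18 to 13 bases before it. Of the 7 members with a promoter sequence, TLR4, TLR6, CD14 and MYD88 held GAGGAA, which 23.6% of 35116 promoters of this length held. MYD88 alone held the response element, which 3.02% held. TLR1, TLR7 and LY96 had no entry. A match is a description of the letters and not a site in use.

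**Figure D1:**
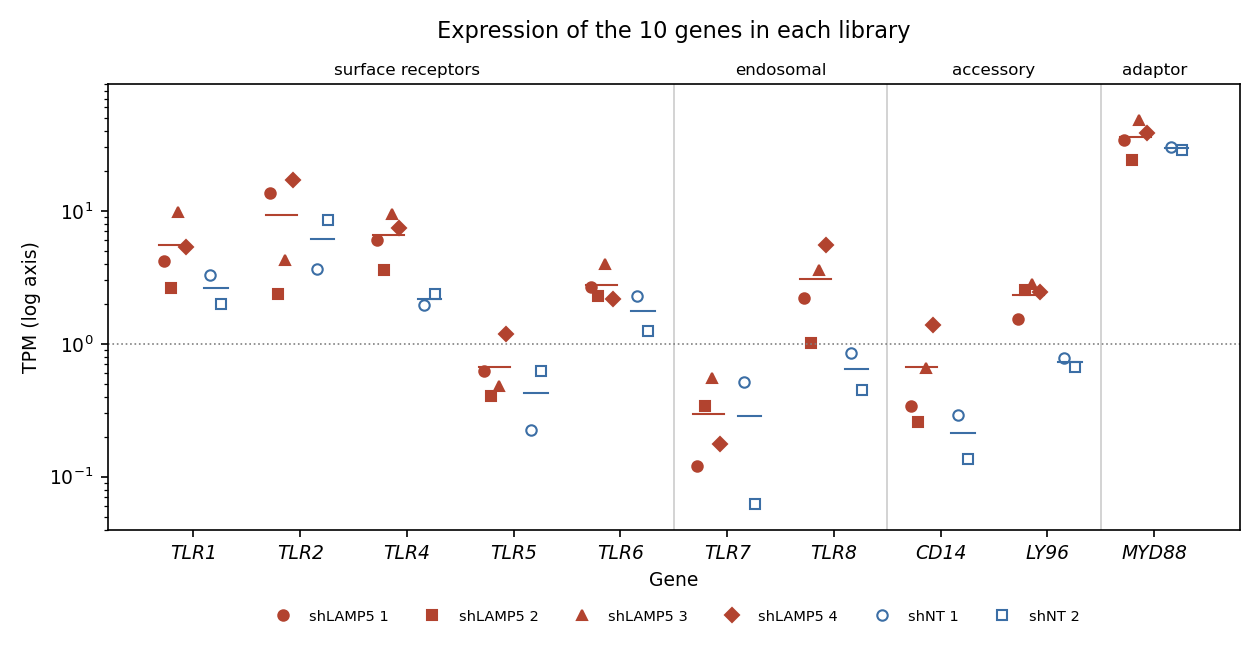
TPM (log axis) of each gene in each library, shLAMP5 filled and shNT open, with the group mean as a line and a dotted line at 1 TPM. MYD88 stood above every receptor in both groups, and TLR4, TLR8 and LY96 were the genes whose groups did not overlap.

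The levels ran over a wide range. In shLAMP5 the means fell in the order MYD88 (36.2 TPM), TLR2 (9.39), TLR4 (6.64), TLR1 (5.49), TLR8 (3.07), TLR6 (2.77), LY96 (2.33), TLR5 (0.674), CD14 (0.663) and TLR7 (0.297). Only the ranges of MYD88 and TLR2, and of LY96 and TLR5, were separate among neighbours in that order. In shNT the order of the means was MYD88 (29.5 TPM), TLR2 (6.11), TLR1 (2.64), TLR4 (2.16), TLR6 (1.77), LY96 (0.728), TLR8 (0.647), TLR5 (0.424), TLR7 (0.287) and CD14 (0.214). There the separate neighbours were MYD88 and TLR2, TLR2 and TLR1, and TLR6 and LY96. The receptor mRNAs were of low abundance: the mean over all libraries put TLR2 at the 40.3 percentile of the genes tested and TLR4 at the 30.1, against 75.1 for MYD88.

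A gene was tested if it reached 1 TPM in at least 2 libraries, and 7 of the 10 members did. TLR5, TLR7 and CD14 did not. TLR8 and LY96 passed only through the shLAMP5 libraries, since both lay under 1 TPM in both shNT libraries, so that their presence among the tested genes already depends on the direction of their difference. Fold changes were taken as shLAMP5 over shNT after log2(TPM + 1), and the added 1 shrinks the change of genes at such low levels. None of the 7 passed the test (smallest limma adjusted p 0.491). Before adjustment TLR4, TLR8 and LY96 had a limma p under 0.05, all higher in shLAMP5, as 3.72% of all genes tested did, but nothing is read from that count, since the filter depends on the direction for TLR8 and LY96. In the fit with no filter, which holds all 10 members, TLR4 and LY96 were the 2 with an unadjusted p under 0.05.

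TLR4, the lipopolysaccharide receptor, had the clearest difference among the surface receptors. It measured 6.06, 3.59, 9.50 and 7.41 TPM in shLAMP5 1 to 4, against 1.95 and 2.37 TPM in shNT 1 and 2. Every shLAMP5 library lay above both shNT libraries, and shLAMP5 2 was the lowest of them. The means were 6.64 ± 2.48 TPM in shLAMP5 (SD, n = 4) and 2.16 ± 0.299 TPM in shNT (SD, n = 2), a ratio of 3.07. In limma, TLR4 had a log2 fold change of 1.21 ± 0.33 (SE; 95% interval 0.46 to 1.97; p 0.00607, adjusted p 0.491), and it was 1.44 without shLAMP5 2 (limma adjusted p 0.104). An exact permutation test over libraries (two-sided) gave 0.0667, the lowest p that dividing 6 libraries into 4 and 2 can give, so this design cannot reach 0.05 in that test. The annotated gene AL160272.2 shares 3.98% of the 31-base words of annotated TLR4 transcripts, so some reads could belong to either. With library weights estimated from the data TLR4 was called (log2 fold change 1.35, limma adjusted p 0.0302). At that setting 210 of the 13072 genes tested were called, 116 of them higher in shLAMP5.

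LY96, the protein that holds lipopolysaccharide on TLR4, also had separate groups. It measured 1.53, 2.52, 2.81 and 2.44 TPM in shLAMP5 1 to 4, against 0.786 and 0.669 TPM in shNT 1 and 2. The groups did not overlap, and here shLAMP5 2 was among the higher libraries. The means were 2.33 ± 0.556 TPM in shLAMP5 (SD, n = 4) and 0.728 ± 0.0832 TPM in shNT (SD, n = 2), and the log2 fold change was 0.93 (95% interval 0.35 to 1.51, limma p 0.00613, adjusted p 0.491; 0.90 without shLAMP5 2). TLR4 exceeded LY96 in every library, by a ratio of 1.42 to 3.97 in shLAMP5 and 2.48 to 3.54 in shNT, and these ratios overlapped.

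CD14, the third protein of that complex and a defining marker of monocytes, was at low levels. It measured 0.340, 0.260, 0.659 and 1.39 TPM in shLAMP5 1 to 4, against 0.292 and 0.136 TPM in shNT 1 and 2. Only shLAMP5 4 exceeded 1 TPM, and the value of shLAMP5 2 fell between those of the shNT libraries. In a fit with no filter on low genes its log2 fold change was 0.41 (limma adjusted p 0.832). TLR4 outnumbered CD14 by a ratio of 5.31 to 17.8 in shLAMP5 and 6.67 to 17.4 in shNT.

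**Figure D2:**
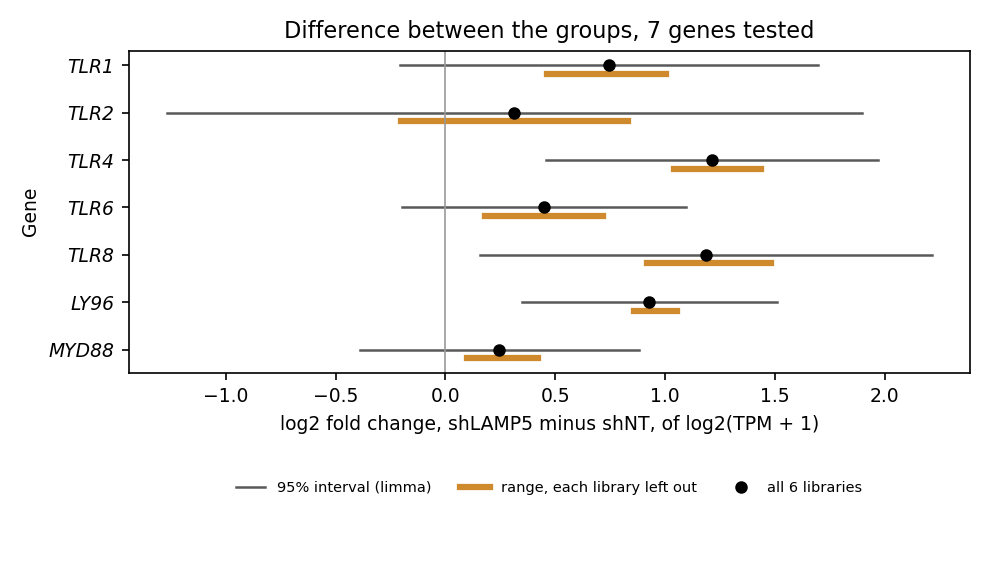
Log2 fold change of the 7 genes tested, shLAMP5 over shNT after log2(TPM + 1), with the limma 95% interval (grey) and the range when each library is left out in turn (orange). The intervals of TLR4, TLR8 and LY96 lay above 0, before any adjustment over genes, and the range of TLR2 crossed 0. TLR8 and LY96 passed the filter only through the shLAMP5 libraries, so nothing is read from their intervals. With no filter TLR8 had an unadjusted limma p of 0.0594.

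TLR2 departed from its partners TLR1 and TLR6, which join it in receptors for triacylated and diacylated lipoproteins. TLR1 and TLR6 were both highest in shLAMP5 3 and lowest in shNT 2. TLR2 measured 13.7, 2.36, 4.28 and 17.2 TPM in shLAMP5 1 to 4, against 3.67 and 8.55 TPM in shNT 1 and 2. The shLAMP5 libraries fell both above and below the shNT libraries, with shLAMP5 1 and 4 high and shLAMP5 2 the lowest of all. The ratio of the highest to the lowest shLAMP5 library was 7.30, more than the ratio of 1.54 between the group means. The log2 fold change of 0.31 (95% interval -1.27 to 1.89, limma adjusted p 0.920) was negative without shNT 1 (-0.20) or without shLAMP5 4 (-0.065). It was 0.83 without shNT 2, 0.75 without shLAMP5 2 and 1.12 with library weights (limma adjusted p 0.212). TLR2 was high in shLAMP5 1, shLAMP5 4 and shNT 2, the libraries whose deviations went together across genes, and the part of that split in its values was not tested.

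TLR1 measured 4.23, 2.62, 9.81 and 5.31 TPM in shLAMP5 1 to 4, against 3.28 and 1.99 TPM in shNT 1 and 2. In all, 3 of the shLAMP5 libraries exceeded both shNT libraries, and shLAMP5 2 lay between them. Its log2 fold change was 0.74 (95% interval -0.21 to 1.69, limma adjusted p 0.617), with 0.46 without shLAMP5 3, the highest library, and 0.49 without shNT 2. TLR6 measured 2.66, 2.27, 4.00 and 2.16 TPM in shLAMP5 1 to 4, against 2.27 and 1.26 TPM in shNT 1 and 2. The groups overlapped, and the log2 fold change of 0.45 (95% interval -0.20 to 1.09, limma adjusted p 0.664) was 0.18 without shNT 2 and 0.72 without shNT 1.

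The balance within this trio varied from library to library and not by group. TLR2 exceeded TLR1 by a ratio of 3.24 in both shLAMP5 1 and shLAMP5 4, while the ratio was 0.901 in shLAMP5 2 and 0.436 in shLAMP5 3, against 1.12 in shNT 1 and 4.29 in shNT 2. TLR1 and TLR6 are neighbouring genes, and the ratio of TLR1 to TLR6 stayed between 1.15 and 2.46 in shLAMP5 and was 1.44 and 1.58 in shNT 1 and 2. The transcripts of these neighbours are alike in part: 9.06% of the 31-base words in annotated TLR1 transcripts also occur in TLR6, and 6.90% of those in TLR6 occur in TLR1. Reads from those stretches could be divided between the genes, so their separate values carry that uncertainty, while TLR8, CD14, LY96 and MYD88 had no 31-base word in another annotated gene.

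TLR5, the flagellin receptor, measured 0.625, 0.403, 0.479 and 1.19 TPM in shLAMP5 1 to 4, against 0.224 and 0.624 TPM in shNT 1 and 2. The groups overlapped, and with no filter on low genes the log2 fold change was 0.23 (limma adjusted p 0.895).

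The endosomal receptors TLR7 and TLR8, neighbours on the X chromosome that bind related ligands, differed from each other. TLR8 measured 2.19, 1.01, 3.59 and 5.51 TPM in shLAMP5 1 to 4, against 0.847 and 0.447 TPM in shNT 1 and 2. Every shLAMP5 library lay above both shNT libraries, with shLAMP5 2 close to shNT 1. The means were 3.07 ± 1.94 TPM in shLAMP5 (SD, n = 4) and 0.647 ± 0.283 TPM in shNT (SD, n = 2), a ratio of 4.75. Its limma log2 fold change of 1.19 ± 0.44 (SE; 95% interval 0.16 to 2.21) had an unadjusted p of 0.0288 and an adjusted p of 0.524, and the exact permutation p was 0.133. Without shLAMP5 2 the log2 fold change was 1.48 (limma adjusted p 0.148), and without shLAMP5 4, the highest library, it was 0.92 (limma adjusted p 0.679). With no filter on low genes the unadjusted limma p was 0.0594.

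TLR7 was listed at low values throughout, 0.121, 0.339, 0.553 and 0.176 TPM in shLAMP5 1 to 4, against 0.512 and 0.0622 TPM in shNT 1 and 2. No library reached 1 TPM, the group means of 0.297 and 0.287 TPM in shLAMP5 and shNT were close, and the log2 fold change with no filter was 0.022 (limma adjusted p 0.985). TLR7 was highest in shLAMP5 3, shNT 1 and shLAMP5 2, the other side of the split between libraries. These were also the libraries in which IRF7, a transcription factor that endosomal receptors activate, singled out after its values were seen, was highest, at 22.4, 21.4 and 51.8 TPM, while it measured 6.31 and 10.4 TPM in shLAMP5 1 and 4 and 5.89 TPM in shNT 2. Of 18 interferon-stimulated genes tested, 17 had positive log2 fold changes, with a median of 0.33 (IFI6 2.16, IFI35 0.77 and HERC5 -0.35), and none passed the test. The summed level of that list was 269 to 419 TPM in shLAMP5, against 334 and 132 TPM in shNT 1 and 2, and neither its part nor that of the split in the values of TLR7 was tested.

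**Figure D3:**
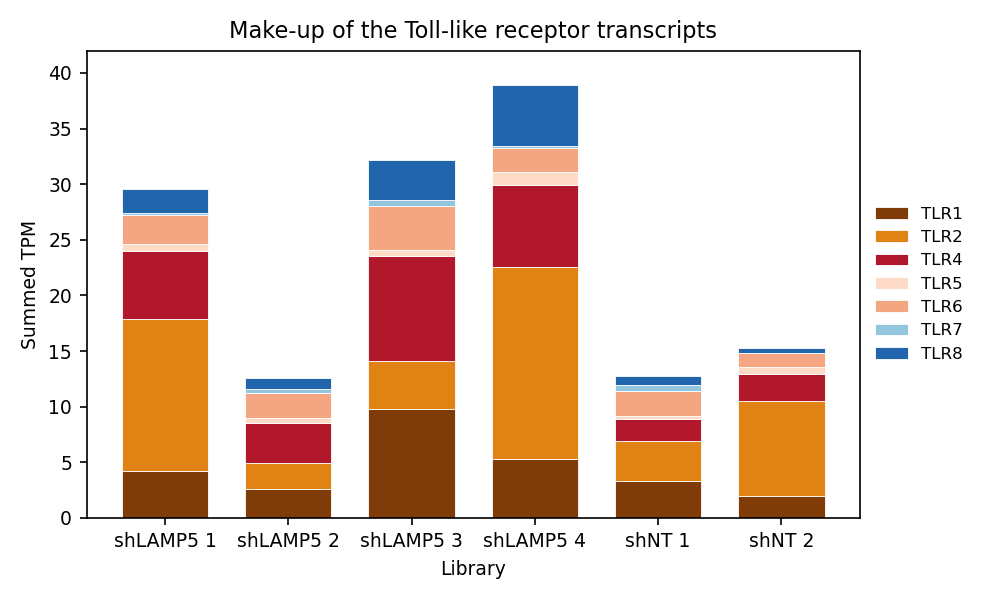
Summed TPM of the 7 Toll-like receptors in each library, stacked by gene. TLR2 made up 46.3% and 44.2% of the sum in shLAMP5 1 and 4 and 55.9% in shNT 2, but 13.3% to 28.8% in the others, and shLAMP5 2 had the smallest sum.

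Set against each other, surface receptors carried most of the receptor mRNA in both groups. The 5 surface receptors summed to 27.3, 11.2, 28.1 and 33.3 TPM in shLAMP5 1 to 4, against 11.4 and 14.8 TPM in shNT 1 and 2. TLR7 and TLR8 together summed to 2.31, 1.35, 4.14 and 5.69 TPM in shLAMP5 1 to 4, against 1.36 and 0.509 TPM in shNT 1 and 2. Both sums overlapped between the groups because of shLAMP5 2. The endosomal share of the receptor sum was 7.82% to 14.6% in shLAMP5 and 10.7% and 3.33% in shNT 1 and 2, again overlapping. The receptor in first place was TLR2 in both shNT libraries and in shLAMP5 1 and 4, TLR4 in shLAMP5 2 and TLR1 in shLAMP5 3.

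MYD88, the adaptor, measured 34.1, 24.0, 48.1 and 38.4 TPM in shLAMP5 1 to 4, against 30.3 and 28.7 TPM in shNT 1 and 2. Of the shLAMP5 libraries, 3 lay above both shNT libraries and shLAMP5 2 lay below both. The log2 fold change was 0.24 (95% interval -0.39 to 0.88, limma adjusted p 0.821), and it was 0.42 without shLAMP5 2 and 0.096 without shLAMP5 3. MYD88 outnumbered the summed receptors in every library except shLAMP5 4, where the ratio was 0.985. That ratio was 1.15, 1.91 and 1.49 in shLAMP5 1 to 3, against 2.37 and 1.88 in shNT 1 and 2.

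Over all 10 members, the groups did not overlap for TLR4, TLR8 and LY96, each higher in shLAMP5. Among all 27680 rows above 0 in at least 1 library, 6.15% had every shLAMP5 library above both shNT libraries, and among the genes tested 8.25% did. Without shLAMP5 2 the count was 6 of the 10, with TLR1, CD14 and MYD88 added, but 4145 of the same 27680 rows then had such values, against 1703 with all libraries. Without shNT 1 it was 7, with TLR1, TLR6, TLR7 and CD14 added, and the share was 13.9%. Without shNT 2 it was 4, with TLR5 added, and the share was 12.6%. TLR4, TLR8 and LY96 stay in the count whichever library is left out, because leaving one out cannot make separate groups overlap. The members were named with earlier results of these data known, so the count describes them and supports nothing further.

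The rest of the pathway was read from fixed lists, beside a median log2 fold change of -0.0060 and 49.3% positive values over all genes tested. TLR3, TLR9 and TLR10, the remaining human receptors, stayed under 1 TPM in every library and were not tested. Of 14 tested partners, chaperones and ligand-handling genes, 0 passed the test, 11 had positive values and the median was 0.46. PLD3, an endolysosomal exonuclease that digests nucleic acids before endosomal receptors meet them, measured 247, 123, 352 and 244 TPM in shLAMP5 1 to 4, against 82.6 and 89.95 TPM in shNT 1 and 2 (log2 fold change 1.38, limma adjusted p 0.491). CTSS, a protease able to process endosomal receptors, had 0.69, and the solute carrier SLC15A4 and its partner TASL, which link endosomal receptors to IRF5, had -0.23 and -0.12. PLD3, CTSS and LY86 were called with library weights (limma adjusted p 0.0242, 0.0464 and 0.0464), among 210 of the 13072 genes tested.

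CD180, a surface relative of TLR4, and LY86, the relative of LY96 that binds it, were far more abundant than the lipopolysaccharide pair. These genes were singled out after their values were seen. CD180 measured 43.1, 28.5, 59.7 and 38.6 TPM in shLAMP5 1 to 4, against 34.5 and 25.9 TPM in shNT 1 and 2 (log2 fold change 0.44, limma adjusted p 0.684). LY86 measured 83.6, 39.0, 92.6 and 109 TPM in shLAMP5 1 to 4, against 32.4 and 44.6 TPM in shNT 1 and 2 (log2 fold change 0.98, limma adjusted p 0.541). The ratio of CD180 to TLR4 was 5.21 to 7.94 in shLAMP5 and 17.7 and 10.9 in shNT 1 and 2, with no overlap, while the ratio of LY86 to LY96 overlapped between the groups (15.5 to 54.8 in shLAMP5, 41.2 and 66.7 in shNT 1 and 2).

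Downstream of the receptors the values were mixed. Of 21 tested adaptors, kinases and transcription factors, 0 passed, 9 were positive and 12 negative, with a median of -0.064. IRAK2, a kinase recruited by MYD88, and IRF3 had log2 fold changes of 0.41 and 0.34, and CHUK, the alpha kinase of the NF-kB pathway, and IRF8 had -0.28 and -0.46. Of 12 negative regulators, 0 passed and 8 were positive, with a median of 0.043. CD300A, an inhibitory receptor, and the phosphatase PTPN6 had 0.87 and 0.28, and the lipid phosphatase INPP5D and TNFAIP3 had -0.12 and -0.085. Of 10 tested genes that Toll-like receptors are known to induce, 0 passed and 6 were positive, with a median of 0.23. The adhesion molecule ICAM1 and the chemokine CXCL8 had 0.65 and 0.77, and TNF and SOD2 had -0.56 and -0.34.

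**Figure D4:**
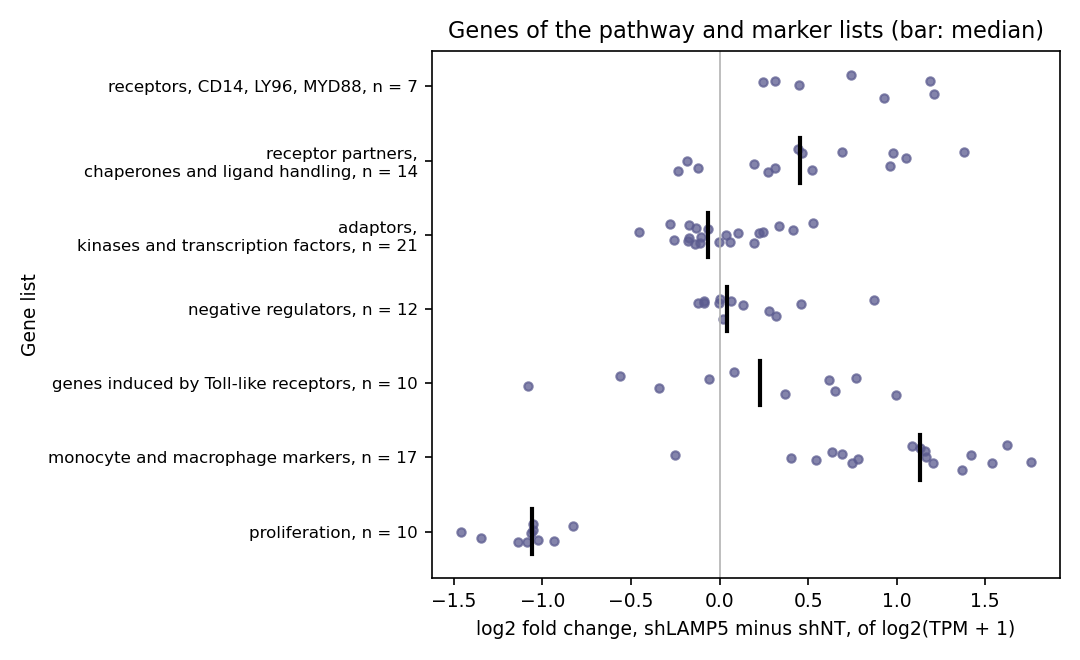
Log2 fold change (shLAMP5 over shNT, after log2(TPM + 1)) of each tested gene by list, points spread vertically for legibility, with the list median as a bar except for the receptor group itself. Adaptors and negative regulators centred near 0, at -0.064 and 0.043, monocyte and macrophage markers at 1.13 and proliferation genes at -1.06.

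Markers of monocytes and macrophages were measured beside the receptors. Of 17 tested, 16 had positive values, with a median of 1.13, and 0 passed the test (CSF3R 1.09, FCER1G 1.76, MSR1 -0.25). The summed level of the 22 markers with a row was 11888, 2499.5, 8127 and 11655 TPM in shLAMP5 1 to 4, against 2803 and 6953 TPM in shNT 1 and 2, and 4 of them stayed under 1 TPM in every library. LYZ, the lysozyme gene, made up most of that sum in every library, at 9729.6, 1397, 5119 and 9415 TPM in shLAMP5 1 to 4, against 1984 and 6062 TPM in shNT 1 and 2, with overlapping groups. The sums with LYZ overlapped too. With LYZ left out after its values were seen, the other 21 summed to 2159, 1103, 3008 and 2240.4 TPM in shLAMP5 1 to 4. In shNT 1 and 2 they summed to 819.8 and 891 TPM. These sums did not overlap, although several single genes among the 21 did. All 10 proliferation genes had every shLAMP5 library below both shNT libraries, as 13.5% of the genes tested did (AURKA -1.05, TOP2A -1.35, list median -1.06), and none passed the test. The part of either in the receptor values was not tested, and in bulk RNA more cells with a transcript and more of it per cell cannot be told apart.

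Markers of other blood cells and of fibroblasts were mostly low, while some epithelial ones were not. Summed levels were 1.98 to 9.37 TPM in shLAMP5 and 2.41 to 3.92 TPM in shNT for 5 T cell markers, of which only CD3D exceeded 1 TPM, and 0.702 to 1.80 TPM in shLAMP5 and 0.723 to 0.958 TPM in shNT for 5 B cell markers. Plasmacytoid dendritic cell markers, of interest because those cells carry TLR7 and TLR9, summed to 0.224 to 1.04 TPM in shLAMP5 and 0.0580 to 0.792 TPM in shNT. Erythroid markers reached at most 1.07 TPM in shLAMP5 and 0.511 TPM in shNT, and megakaryocyte markers 0.503 TPM in shLAMP5 and 0.218 TPM in shNT. PF4 and PPBP, the platelet chemokine genes, were listed at 0 in every library. Fibroblast markers summed to 1.25 to 6.36 TPM in shLAMP5 and 0.720 to 3.38 TPM in shNT, with COL3A1 at 0. In shLAMP5 2 the collagen gene COL1A1 (5.91 TPM) and CD3D (5.32 TPM) stood above all 7 receptors, the highest being TLR4 (3.59 TPM). CD3D did so in shNT 1 too (3.75 TPM, against 3.67 TPM for TLR2). In the remaining libraries the highest receptor exceeded both. Epithelial or packaging cell markers summed to 25.5 to 33.7 TPM in shLAMP5 and 25.8 to 30.8 TPM in shNT. The 7 receptors summed to 12.6 to 39.0 TPM in shLAMP5 and 12.8 to 15.3 TPM in shNT. Nearly all of the epithelial sum came from the keratin genes KRT8 and KRT18, with KRT19 at 0. KRT8 measured 10.1, 13.0, 13.9 and 8.19 TPM in shLAMP5 1 to 4, against 7.88 and 7.13 TPM in shNT 1 and 2, with every shLAMP5 library above both shNT libraries (log2 fold change 0.51, limma adjusted p 0.583). The part of these cells in the receptor values was not tested.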

How the data were processed

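RNA sequencing values of 6 MOLM-13 libraries were used, grouped by their titles. The authors deposited 1 table of TPM, as read from its fractional values and sums, with no unit named in it. Per the submitters' processing notes, kallisto and hg19 were used; the sources used here give no version, transcript set or gene summary step. Read numbers cannot be had from TPM, so depth is unknown and no counting interval is given. Symbols were matched for 29895 identifiers, and 5779 more were named from GENCODE release 29.

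limma 3.58.1 (R 4.3.3) with a mean-variance trend was run on log2(TPM + 1) for genes with at least 1 TPM in 2 libraries, group as sole factor, with Benjamini-Hochberg adjustment over all 13072 genes at 0.05. The fit was first run on simulated data, with a required recovery set only for genes of equal spread. That run does not give the power of the test in these data. Exact permutation tests ran over 15 splits. Shared 31-base words were counted in GENCODE transcripts, both strands. Figures were drawn with matplotlib 3.10.9 in Python 3.11.15.

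Members and lists were chosen with earlier results of these data known. Named genes were the members, LAMP5, per list the 2 smallest p-values in each direction, and for each tested member the 3 genes with the highest Pearson correlation, among those averaging at least 5 TPM. Outside that rule, IRF7, CD180, LY86 and LYZ were named after their values were seen, and the markers of cell types serve as checks. Of the list genes, IKBKE, IKBKG, CCL3, CCL4, CCL5 and MRC1 were not analysed here. Alternatives were other pseudocounts, filters, scalings, library weights, no trend, the replicate number as a block and each library left out.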

Additional observations from a re-analysis of the deposited data

How the results depend on the processing

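No member was called with any other pseudocount, filter or scaling, without the trend, with the replicate block or with any library left out, and 98 of 102 alternative values for single members kept direction and side of the threshold. Library weights called 210 genes in all, among them 1 member (TLR4) and 3 genes of the pathway lists. The count over all genes was 14 with no filter, all lower in shLAMP5 and no member among them, and 16 with the replicate block, against 0. The TLR2 log2 fold change of 0.31 became -0.065 without shLAMP5 4 and ranged from -0.20 (without shNT 1) to 0.83 (without shNT 2) over the libraries left out, with 1.12 under library weights, and that of MYD88 became -0.040 with the replicate block. Whether the same numbers pair the libraries is not stated. Deviations from the group means correlated at -0.52 for number 1 and -0.474 for number 2, across genes. As the deviations of the 2 shNT libraries are exact opposites, these values cannot settle it. Leaving a library out cannot lower the number of members with separate groups. Of the 7 tested members, the number with every shLAMP5 library above the shNT libraries was 3 to 5 with each library left out. It was 3 under median scaling, and all these alternatives were added after the data were seen. TLR8 and LY96 are among the 7 only because they are high in shLAMP5, so nothing is read from that number. Over all 10 members the count under median scaling was 4, with CD14 added. There 7.27% of the 27680 rows above 0 in at least 1 library had such values. Of the 7, the number was 5 without shLAMP5 2 and 5 without shNT 1. The share over all genes tested was then 22.2% and 18.4%, against 8.25% with all libraries. TLR6, TLR8 and LY96 have no value at a minimum of 5 TPM. The unadjusted count over all genes was 499 without shNT 1, 408 without shNT 2 and 2248 without shLAMP5 2. The causes were not tested. With 2 shNT libraries, low TPM and unknown depth, differences in TLR5, TLR7 and CD14 could not be resolved.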

Other observations

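The genes whose pattern over the 6 libraries was most like each tested member are given as a description, with Pearson's r of log2(TPM + 1), n = 6 libraries in 2 groups, and no test. With so few libraries such values are common: 338 of 8846 candidate genes had an r above 0.9 with TLR4, and 468 with TLR2. The genes were picked for this likeness, so any pattern they share with the member follows from the choice. Nearest to TLR4 were RASSF4 (0.996), a member of the RASSF family, TRAF3IP3 (0.993) and HLA-E (0.992), a nonclassical MHC class I molecule. HLA-E measured 24.5, 16.9, 32.7 and 25.1 TPM in shLAMP5 1 to 4, against 13.3 and 13.7 TPM in shNT 1 and 2, with no overlap, like TLR4. Nearest to LY96 were ABTB1 (0.990), the antiproliferative gene BTG1 (0.987) and ZNF225-AS1 (0.982). BTG1 measured 26.3, 34.7, 36.0 and 33.2 TPM in shLAMP5 1 to 4, against 22.2 and 22.6 TPM in shNT 1 and 2.

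Nearest to TLR8 were TAGAP (0.982), ZFYVE16 (0.981), an endosomal protein, and the adhesion molecule CD48 (0.981). Nearest to TLR2 were TTC3 (0.994), DOP1B (0.993) and PNKD (0.993). TTC3, DOP1B and PNKD, like TLR2, were higher in shLAMP5 1 and 4 than in shLAMP5 2 and 3. Nearest to TLR1 were TMEM184C (0.995), the lysosomal membrane protein gene CLN3 (0.993) and the actin-severing protein gene GSN (0.990). GSN measured 68.7, 52.5, 184 and 93.0 TPM in shLAMP5 1 to 4, against 59.9 and 44.4 TPM in shNT 1 and 2, highest in shLAMP5 3 as TLR1 was. Nearest to TLR6 were PPIB (0.994), PTPRO (0.992) and PIK3R1 (0.990), and nearest to MYD88 were AP001972.1 (0.998), the signalling adaptor gene GRB2 (0.997) and VPS37B (0.996).

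Among the members themselves, r was 0.93 between TLR1 and MYD88, 0.90 between TLR4 and TLR8, 0.88 between the neighbouring genes TLR1 and TLR6, which share part of their sequence, and 0.81 between TLR4 and LY96. TLR2 had r of 0.49 to TLR8, 0.37 to TLR4, 0.35 to MYD88, 0.11 to TLR1, -0.066 to LY96 and -0.23 to TLR6. The lowest r of a pair without TLR2 was 0.42, between LY96 and MYD88.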
